A study of Mus musculus with 6 samples.

Results

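The insulin and insulin-like growth factor (IGF) genes followed here comprise 9 of the 34797 genes named on the array: the IGF binding proteins Igfbp4, Igfbp3 and Igfbp7, the ligand Igf1, the receptors Igf1r, Igf2r and Insr, and the receptor substrates Irs1 and Irs2. They are covered by 17 probes, and every probe that carries the name of one of these genes is given separately. The group was put together around the low signal of the Igfbp4 probe in cells with miR-26a, so values of miR-26a against control are a description of these genes, while the sponge arrays played no part in the choice.

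The arrays measured RNA of the mouse pre-B cell line 1676, grown from bone marrow of SLP-65-/- LAT-/- mice, so that cells of all groups lack both of these adaptor proteins and are arrested as pre-B cells. Cells were transduced with a retroviral vector and selected with puromycin: 2 arrays came from cells with the empty control vector, 2 from cells overexpressing hsa-miR-26a-2 (miR-26a), and 2 from cells with a sponge, a transcript with many binding sites that sequesters miR-26a and miR-26b. All cells were kept in excess IL-7, their growth factor, and each group was measured once in each of 2 independent experiments. The control was an empty vector for both constructs, not a scrambled sponge or a seed mutant, and a single cell line stands for pre-B cells.

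IGF1, IGF2 and insulin signal through the receptor tyrosine kinases IGF1R and INSR, which phosphorylate the substrates IRS1 and IRS2, and these dock PI3 kinase and so lead to AKT. IGF2R has no kinase and carries IGF2 and lysosomal enzymes to the lysosome, and the IGF binding proteins hold IGFs outside the cell and control their access to the receptors. In bone marrow, IGF1 from stromal cells is known as a growth signal for B cell precursors beside IL-7. A microRNA pairs through its seed, bases 2 to 8 from its 5′ end, with sites in mRNAs and lowers their level or translation.

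Both microRNAs that the sponge binds share a seed, shown here in capitals in the mature mouse sequences of RefSeq (GRCm38.p6). The stretches of the Igf1r and Irs2 array probes are shown because they are the ones, among the 17 probes, that hold a match to bases 2 to 7 of this seed, in capitals:
mmu-miR-26a-5p: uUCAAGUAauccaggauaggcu
mmu-miR-26b-5p: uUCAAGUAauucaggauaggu
Igf1r probe, chr7:75378464-75378493, plus strand, mm9: aaagctaaggccACTTGAgtctattactct
Irs2 probe, chr8:11004490-11004519, minus strand, mm9: aagcatcgacttcctgtcccatcACTTGAA

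In the Irs2 probe the match is followed by an A. The word ACTTGA was found in 1.96% of all 55681 probes and on the other strand in 1.92%, ACTTGAA in 0.700% and 0.621%, and the match to the whole seed, TACTTGA, in 0.431% and 0.392%. The words overlap, since ACTTGA lies within both of the others. TACTTGA was in 0 of the 17 probes, and none of the 17 held any of these words on the other strand. A probe of 60 bases shows only a small part of a transcript, so a match describes the probe, and the rest of each mRNA was not analysed here.

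Each probe was read as the background-subtracted signal that the scanner software gives, quantile-normalized over the 6 arrays and taken as log2. A probe counted as detected on an array when at least 1 of its spots was well above background by that software, and 24972 of the 55681 probes (44.8%) were so on all 6 arrays while 24991 (44.9%) never were. The B-lineage marker genes Cd79a, Cd79b, Igll1, Vpreb1, Pax5 and Ebf1 were detected on every array. Of 5 stromal markers, Col1a1, Col3a1, Dcn and Pdgfrb were never detected, and the summed signal of the list was 35.2 to 37.9 on control, 28.2 to 31.5 on miR-26a and 33.0 to 42.2 on sponge arrays. Of the endothelial markers, Cdh5 and Tek were never detected while Kdr was on all arrays, through 1 of its probes. Of the T cell markers Cd3e and Cd4 were detected, Cd3g was not, and Cd8a was on 1 array. Of the myeloid markers Itgam and Csf1r were detected on all arrays and Lyz2 on 1. The summed myeloid signal was 3223 to 4334 on control, 3540 to 4245 on miR-26a and 2695 to 4148 on sponge arrays. Most of it came from 1 Itgam probe. A dimmer Itgam probe read 219 and 228 on control, 124 and 128 on miR-26a and 144 and 169 on sponge arrays. A Csf1r probe read 289 and 247 on control, 295 and 229 on miR-26a and 147 and 185 on sponge arrays. On the other Itgam and Csf1r probes the sponge and control arrays overlapped. The miR-26a and control arrays also overlapped on the other Itgam probes. Each group filled its own column of the 1 slide, and each experiment its own row, so that slide position cannot be told apart from group and experiment. In RNA from whole cultures, fewer cells with a transcript and less of it per cell cannot be told apart.

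Of the 9 genes, 5 had a detected probe. Igfbp4, Igf1, Igf2r, Insr and Irs2 were seen in pre-B cells, while Igfbp3, Igfbp7, Igf1r and Irs1 were not above background on any of the 6 arrays. Counted by probe, 7 of the 17 were detected on all 6 arrays, 9 on none, and that of Igfbp4 on 4, as the plot of signals by probe and array shows.

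**Figure D1:**
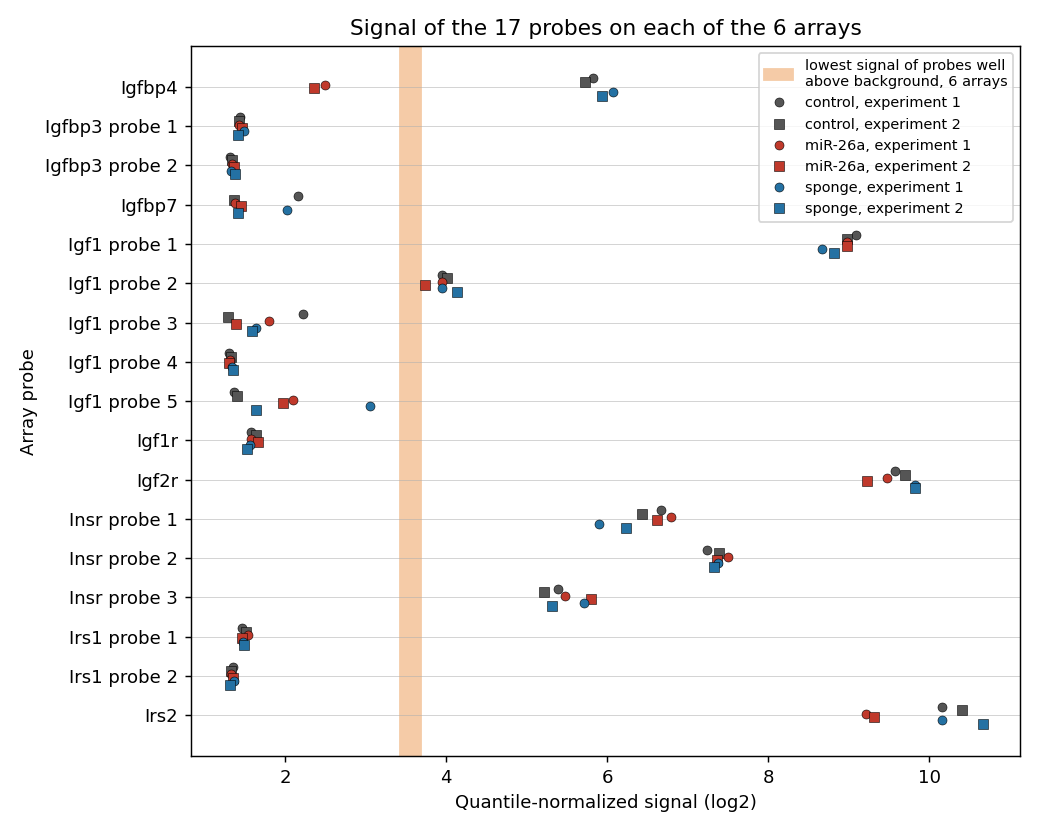
Quantile-normalized log2 signal (horizontal axis) of each of the 17 probes (vertical axis) on the 6 arrays; colour gives the group, circles experiment 1 and squares experiment 2, and the band spans the lowest signals of probes well above background on the 6 arrays, 3.43 to 3.69. Igfbp4 lies near 2.4 on both miR-26a arrays and between 5.72 and 6.07 on the other 4; for Irs2 the miR-26a arrays lie below the other 4.

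Igfbp4, a binding protein mostly known to restrain IGF action, had the most uneven signal over the groups. Its 1 probe (chr11:98913334-98913393, plus strand, mm9) read 5.82 and 5.72 on the control arrays, 2.49 and 2.36 on the miR-26a arrays, and 6.07 and 5.93 on the sponge arrays, all on the log2 scale. It was well above background on every control and sponge array and on neither miR-26a array, and it passed the filter on dim probes only through those 4 arrays. The miR-26a and control arrays were far apart, and the control and sponge arrays did not overlap either.

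The miR-26a signal of Igfbp4 is therefore only a bound. Its level there was set at the lowest signal of probes well above background on the same arrays. The probe was then at least 4.62-fold lower with miR-26a than with control vector, and at least 5.42-fold lower than with the sponge. An undetected probe can read above that lowest signal, so these bounds are not strict. The probe of Pappa, a further pathway gene, was undetected and read 3.75 on the second miR-26a array, where the lowest signal was 3.68. The measured difference of log2 signals between miR-26a and control was -3.33 in experiment 1 and -3.36 in experiment 2, with a mean of -3.35, and it includes signals below background, so its size and its place among other probes are not measured. With another background correction, normexp with an offset of 50, which lifts dim signals, the difference was -0.81.

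In the sponge cells the Igfbp4 signal was above that of the controls by 0.25 and 0.21 in the 2 experiments. The mean difference of 0.23 (limma standard error 0.07, 95% confidence interval 0.07 to 0.39, n = 2 against 2) did not pass the test, with an adjusted p of 0.238 (limma, Benjamini-Hochberg over all probes tested). The spread behind this interval was estimated over all 6 arrays, including the miR-26a arrays on which the probe was not detected. The sponge difference and that with miR-26a were both taken from the same pair of control arrays and are not independent.

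Of the other binding proteins, Igfbp3, the main IGF carrier in serum, has a probe at chr11:7107949-7108008 and one at chr11:7106594-7106653 (both minus strand, mm9), and Igfbp7, a related secreted protein with low IGF affinity, has one at chr5:77778271-77778330 (minus strand). The Igfbp3 probes read 1.32 to 1.49 over all arrays. The Igfbp7 probe read 2.16 and 1.37 on control, 1.37 and 1.45 on miR-26a and 2.03 and 1.42 on sponge arrays. None of these signals was well above background, so they have no order and no fold change is given.

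The ligand Igf1 has 5 probes, and only the first (chr10:87378456-87378515, plus strand, mm9), which the design assigns to transcript variant 2, was bright. It read 9.10 and 8.99 on control, 8.98 and 8.99 on miR-26a, and 8.67 and 8.82 on sponge arrays. Both sponge arrays lay below all of the others, while the miR-26a arrays lay at the lower control array. The transcript that the design names for this probe was not found among the RefSeq transcripts used here, unlike that of the other Igf1 probes. Its assignment to Igf1 thus rests on the design.

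With miR-26a the mean difference of this probe from control was -0.06. With the sponge it was -0.43 in experiment 1 and -0.16 in experiment 2, a mean of -0.30 (limma standard error 0.09, 95% confidence interval -0.51 to -0.08), which did not pass the test (adjusted p of 0.240, limma with Benjamini-Hochberg). The probe was spotted 2 times on each array. On the second control array these spots read 8.74 and 9.23, a range wider than the difference between the groups, while on the other 5 arrays they lay 0.03 to 0.26 apart.

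The other 4 Igf1 probes lie 15105 to 21125 bases downstream and are assigned by the design to transcript variant 1. The one at chr10:87395924-87395983 read 3.95 and 4.01 on control, 3.96 and 3.74 on miR-26a, and 3.95 and 4.13 on sponge arrays, with only part of its 2 spots above background, and its signal of 13.4 to 17.6 on the linear scale was under the limit of 50 for a test. The groups overlapped. The remaining 3 probes were never well above background, with log2 signals of 1.30 to 3.05, so no change could be measured there.

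Igf1r, the main receptor for both IGFs, has 1 probe (chr7:75378461-75378520, plus strand, mm9). It read 1.57 and 1.63 on control, 1.58 and 1.66 on miR-26a, and 1.57 and 1.53 on sponge arrays. It was not above background on any array, so no change of Igf1r could be measured in either direction, also not for the seed match shown above.

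Igf2r, the receptor without kinase activity that clears IGF2, was bright and its probe was spotted 10 times on each array. The design gives for it a stretch of only 11 bases (chr17:12875253-12875263, minus strand, mm9). It read 9.57 and 9.71 on control, 9.48 and 9.24 on miR-26a, and 9.83 on both sponge arrays. The groups did not overlap: miR-26a was lowest, then control, then sponge.

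The mean difference of Igf2r from control was -0.28 with miR-26a, but -0.09 in experiment 1 and -0.47 in experiment 2. With the sponge it was 0.26 and 0.12, a mean of 0.19 (limma standard error 0.10, 95% confidence interval -0.07 to 0.45, adjusted p of 0.418 by limma with Benjamini-Hochberg). The standard deviation over the 10 spots of an array was 0.05 to 0.09. Neighbouring groups in this order lay as close as 0.09 apart, within the standard deviation of 0.18 between the miR-26a arrays.

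Insr, the insulin receptor, has 3 probes on the minus strand of chromosome 8, within 3805 bases of each other, and all were detected on all arrays. The first (chr8:3155472-3155531, mm9) read 6.67 and 6.43 on control, 6.80 and 6.62 on miR-26a, and 5.91 and 6.24 on sponge arrays. Here both sponge arrays were lowest, and the miR-26a arrays overlapped the control.

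The second Insr probe (chr8:3151667-3151726) read 7.24 and 7.39 on control, 7.50 and 7.36 on miR-26a, and 7.38 and 7.33 on sponge arrays. The dimmest (chr8:3154024-3154083) read 5.39 and 5.22 on control, 5.48 and 5.80 on miR-26a, and 5.72 and 5.32 on sponge arrays, and was too dim for the test. In both of these probes the sponge and control arrays overlapped.

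With miR-26a the mean difference from control was 0.16 for the first Insr probe, which moved to 0.0011 without control replicate 2 and to 0.32 without control replicate 1, and 0.12 for the second. With the sponge the first probe differed by -0.76 and -0.19 in the 2 experiments, a mean of -0.48 (limma standard error 0.15, 95% confidence interval -0.85 to -0.11), and the second by 0.04 (standard error 0.09, interval -0.18 to 0.27). Neither passed the test, with adjusted p of 0.248 and 0.833 (limma, Benjamini-Hochberg). The probes of this gene disagreed, and the difference of the first was larger in experiment 1.

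Of the substrates, Irs1 was not detected. Its probes at chr1:82229692-82229751 and chr1:82233564-82233623 (minus strand, mm9) read 1.32 to 1.54 over all 6 arrays. Irs1 and Irs2 share much of their function in docking PI3 kinase, and in these cells Irs2 was the one with a measurable signal.

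Irs2 has 1 probe (chr8:11004490-11004549, minus strand, mm9). It read 10.15 and 10.41 on control, 9.21 and 9.32 on miR-26a, and 10.16 and 10.67 on sponge arrays. Both miR-26a arrays lay well below all of the others, and the sponge arrays overlapped the control arrays.

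The Irs2 signal with miR-26a was 0.494 times that of the control, a log2 difference of -0.94 in experiment 1 and -1.09 in experiment 2 with a mean of -1.02. With the sponge it differed by 0.01 and 0.26, a mean of 0.13 (limma standard error 0.11, 95% confidence interval -0.14 to 0.40), with an adjusted p of 0.571 (limma, Benjamini-Hochberg). The plot of differences by experiment sets the tested probes side by side.

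**Figure D2:**
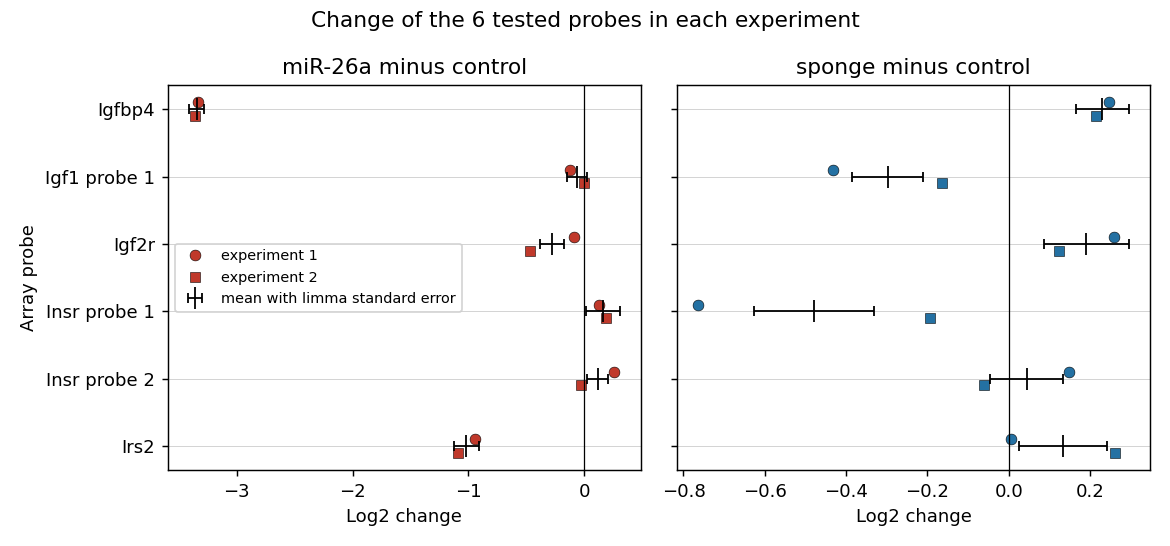
Log2 difference from control (horizontal axes, with different ranges) of the 6 tested probes (vertical axis) with miR-26a (left) and the sponge (right); circles are experiment 1, squares experiment 2, and bars the mean with limma's standard error. With miR-26a, Igfbp4 (-3.35, a probe that is not above background there) and Irs2 (-1.02) stand apart from the other 4, whereas with the sponge no mean exceeds 0.48 in size.

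With miR-26a, 2 of the 6 probes tested (Igfbp4 and Irs2) were lower and 0 were higher by limma, with a limit of 0.05 on the adjusted p, where 5.14% of all 20168 probes tested were lower and 4.5% higher. The miR-26a and control arrays did not overlap for 3 of the 6 (Igfbp4, Igf2r and Irs2), all lower, where 22.9% of all probes tested were lower and 26.5% higher without overlap. As the genes were chosen on this contrast, nothing is read from these counts. Irs2 was no longer called when the experiment was left out as a block or when either control array was left out. The median difference was -0.17 over the 6 probes and 0.01 over all.

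With the sponge, 0 of the 6 passed by limma in either direction, where 0% of all probes were lower and 0.00992% higher, and 3 (Igfbp4, Igf1 and the first Insr probe) had an unadjusted p under 0.05, as did 16.1% of all probes tested. The other tests run on the same values also called 0. The arrays of sponge and control did not overlap for 4 of the 6 probes, with Igfbp4 and Igf2r higher and Igf1 and the first Insr probe lower, where 17.3% of all probes tested were higher and 20.4% lower without overlap. Igf1 and the first Insr probe, though not past the test, read lowest on the sponge arrays. Beside them, the T cell list summed to 1382 to 1398 on control, 1281 to 1410 on miR-26a and 1050 to 1196 on sponge arrays. Its brighter Cd4 probe and Cd3e were lower on both sponge arrays than on control. The dimmer Cd4 probe read 13.8 and 13.3 on control and 14.2 and 14.4 on sponge arrays. The endothelial list summed to 2687 to 2827, 2553 to 2665 and 2041 to 2521 in the same order. Nearly all of this was 1 Kdr probe, since Cdh5, Tek and the other Kdr probe were never above background. The sums of the B-lineage, myeloid and stromal lists overlapped between sponge and control arrays. The part of these signals in the result was not tested. The median difference with the sponge was 0.09 over the 6 probes and 0.00 over all.

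For the rest of the pathway, 33 further genes were looked at: ligands, binding proteins, their proteases, processing enzymes, adaptors and other regulators. They have 39 probes, 15 of which were never above background, and 13 probes of 11 genes could be tested. Of these, 1 was lower and 0 higher with miR-26a, where 5.14% of all probes tested were lower and 4.5% higher, and 3 had an unadjusted p under 0.05, against 27.3% of all probes tested. These counts are near the background, and the median difference was 0.04. With the sponge 0 were called by limma, 1 had an unadjusted p under 0.05, against 16.1% of all probes tested, and the median was -0.05.

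The probe that fell with miR-26a was that of Gab1 (chr8:83289342-83289401, mm9), an adaptor that, like IRS proteins, docks PI3 kinase. It read 7.37 and 7.52 on control, 6.47 and 6.56 on miR-26a, and 7.41 and 7.45 on sponge arrays. The miR-26a arrays lay below all others, by -0.90 and -0.96 in the 2 experiments, and the mean of -0.93 (limma standard error 0.07, 95% confidence interval -1.11 to -0.76) had an adjusted p of 0.00470, a call that was lost when either control array was left out. With the sponge the difference was -0.02 (interval -0.19 to 0.15, adjusted p of 0.909 by limma).

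By role, none of the 6 further binding proteins and partners (Igfbp1, Igfbp2, Igfbp5, Igfbp6, Igfbpl1 and Igfals) was bright enough for the test, and 4 of them were never above background. Among 11 adaptors, 6 were tested, and Gab1 was the one called. Of 6 other regulators, 2 were tested, Ptpn1 and Nedd4. Ptpn1 is a phosphatase of the insulin receptor, and Nedd4 a ubiquitin ligase that acts on receptor signalling through GRB10. None of their 3 probes was called. One Ptpn1 probe read 6.59 and 6.67 on control, 6.87 and 6.99 on miR-26a, and 6.25 and 6.22 on sponge arrays, with adjusted p of 0.0619 and 0.213 against control by limma, while the other probe of this gene differed from control by -0.05 and -0.15.

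**Figure D3:**
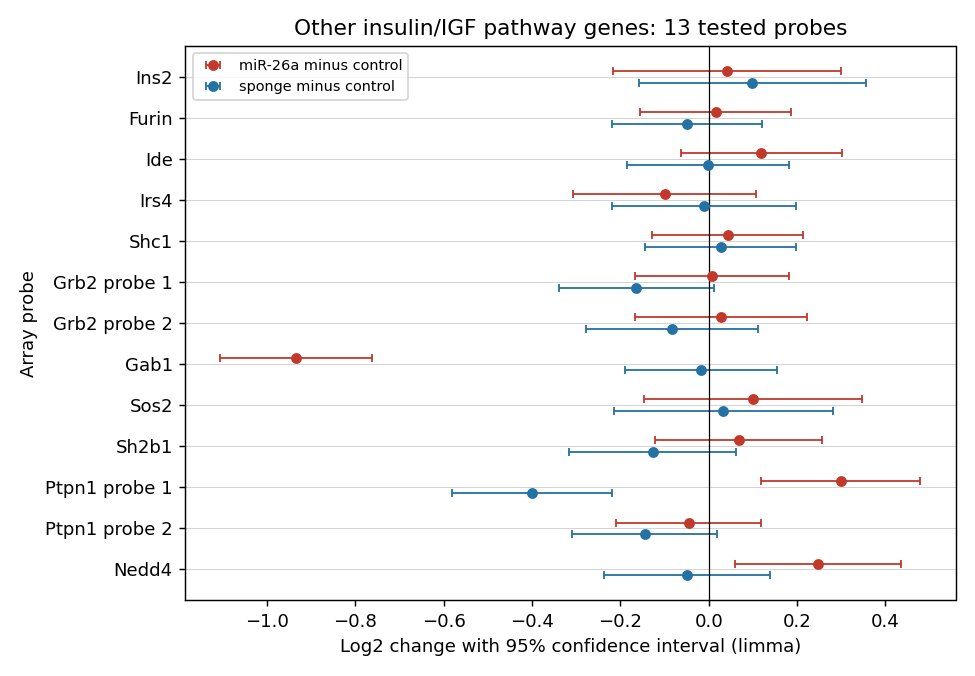
Log2 difference from control (horizontal axis) with limma's 95% confidence interval for the 13 tested probes of the 33 further pathway genes (vertical axis), red for miR-26a and blue for the sponge. Gab1 with miR-26a is at -0.93, and the other 12 miR-26a points lie between -0.10 and 0.30.

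The genes whose pattern over the 6 arrays was nearest to that of Igfbp4 were sought by the Euclidean distance between log2 signals, each probe centred on its own mean. The miR-26a signals of Igfbp4, 2.49 and 2.36, lie below the lowest signals of detected probes on those arrays (3.45 and 3.68), so its distances rest on a bound and no order is given. Genes near it by this rule included Rag2, a subunit of the V(D)J recombinase, Ccr7, a chemokine receptor, Camk4, a calcium-dependent kinase, and B230118H07Rik. Their differences from control with miR-26a were -3.36, -2.50, -2.51 and -2.24. The sponge arrays of these 4 genes lay 0.10, 0.24, 0.36 and 0.36 from control. Unlike Igfbp4, Rag2, Ccr7 and B230118H07Rik stayed above background on both miR-26a arrays, and Camk4 on 1. The difference of Camk4 thus includes a signal not above background, and its size is not fully measured.

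Nearest to Irs2 were Ero1lb (distance 0.14), an oxidase of the endoplasmic reticulum, 2410066E13Rik (0.16), Grip1 (0.20), Hist3h2ba (0.26) and Lgr5 (0.27), a receptor for R-spondins. They differed from control with miR-26a by -1.13, -1.11, -0.98, -1.21 and -1.04, and with the sponge by 0.11, 0.12, 0.22, 0.12 and -0.07. As with Irs2 itself, the second array of each group read higher than the first, a likeness that the rule of choice selects for. The likeness covers 6 arrays, on which the shift with miR-26a makes up most of the pattern.

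**Figure D4:**
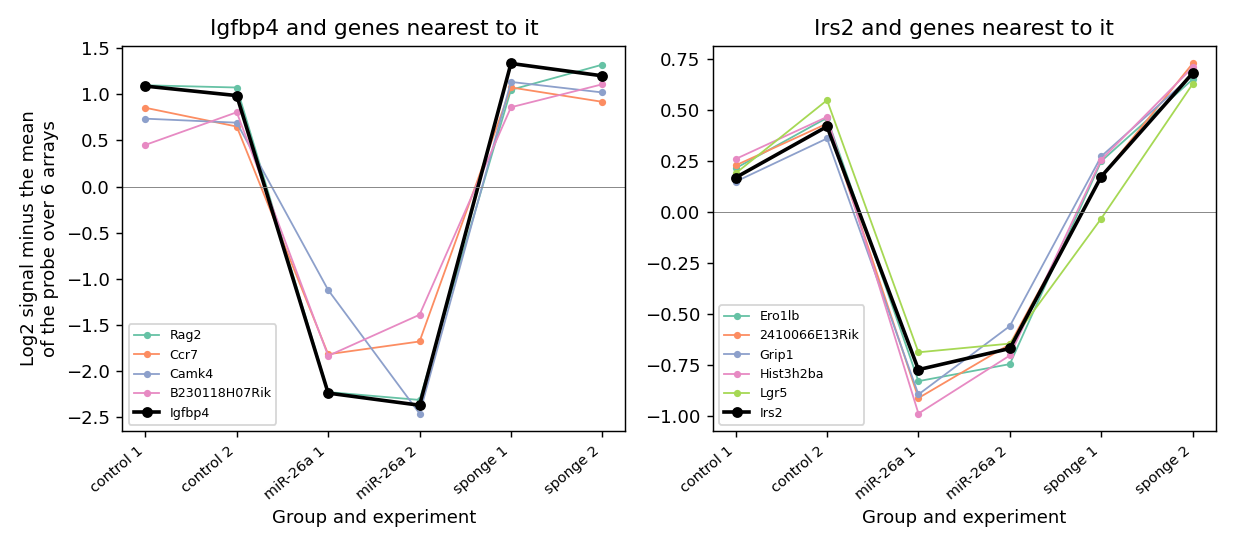
Log2 signal minus the probe's own mean over the 6 arrays (vertical axis) on each array (horizontal axis, group and experiment) for Igfbp4 (left, black) and Irs2 (right, black) with 4 and 5 of the genes nearest to each. All lines drop on the miR-26a arrays, and on the right the second array of each group lies above the first. The genes were chosen for likeness over these same arrays.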

How the data were processed

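RNA of 1676 cells was hybridized to 6 Agilent mouse arrays (1 colour, 1 slide). For each array the authors deposited scanner output (Agilent Feature Extraction 10.7.1.1, per the labels), which gives every spot an intensity with its background subtracted, and a table of quantile-normalized intensity values on the linear scale. Groups and replicate numbers come from the labels, and probe names and mm9 positions from the array design. Exons and UTRs were not analysed here.

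After controls, 59305 spots of 55681 probes remained on each array, of which 28823 to 29800 were well above background and 0 saturated. The processed signals of all spots were brought to the same quantiles and to the log2 scale. Spots of a probe were then averaged without outlier-flagged ones, except that a probe with all spots flagged kept them. The 20168 probes that exceeded 50 on at least 4 arrays and were well above background on 1 or more were tested with limma 3.58.1 (R 4.3.3). The fit took in all 6 arrays, with experiment as a block, and the Benjamini-Hochberg method with a limit of 0.05. A bound compares the bright group with, per array, the higher of the probe's own value and the lowest signal among probes with every spot well above background. The block follows the methods, which set each experiment against its own control. Deviations from the group means were shared by arrays of the same number (correlation across probes of 0.38 between miR-26a and control, 0.59 between sponge and control, and 0.45 between sponge and miR-26a). Other sample accessions appear in the titles of the control arrays, which may thus stem from an earlier series.

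The members, the pathway and marker lists and the naming rule (all members, listed genes past the test, and the 5 genes nearest to Igfbp4 and to Irs2) were chosen with earlier results of these data known. The Ptpn1 values were picked once seen. Some genes that the rule and lists cover are left out of this account. Alternatives were no block, an unpaired test, a test of the 2 log ratios, 75th percentile scaling, normexp, the authors' values, 3 other filters and leaving out each array. The fit was tested on simulated data. The number of arrays limits the precision. Tables and plots were made with pandas 2.3.3, numpy 2.4.6 and matplotlib 3.10.9.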

Additional observations from a re-analysis of the deposited data

How the results depend on the processing

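The count of the 6 tested insulin and IGF probes called with miR-26a was 2 with the experiment as a block and 1 without the replicate block, where Irs2 no longer passed. It was 1 of 5 with the filter that asks for a signal well above background on all 6 arrays, which leaves Igfbp4 out, and 0 with an unpaired t-test, the test of the 2 log ratios and no filter on dim probes. Leaving out 1 array at a time gave 1 to 2, with 1 when either control array was left out. Of the 13 probes of the further pathway genes, 1 (Gab1) was called with miR-26a with and without the block, 0 with the unpaired t-test, the test of the log ratios and no filter, and 0 to 1 on leaving out 1 array, with 0 when either control array was left out. The cause of these changes was not tested beyond what each setting removes. With the sponge, 0 probes of either list were called in every setting run. The log2 difference with miR-26a ranged over the alternatives from -3.44 to -0.81 for Igfbp4, its smallest size under normexp, from -1.15 to -0.88 for Irs2, from -0.44 to -0.12 for Igf2r and from 0.0011 to 0.32 for the first Insr probe. Signs turned in 4 cases, all on leaving out an array. Without control replicate 1 the first Igf1 probe was at 0.037 with miR-26a (range on leaving out 1 array -0.16 to 0.037), and the second Insr probe at -0.0069 with miR-26a (-0.0069 to 0.24) and -0.080 with the sponge (-0.080 to 0.17). Without sponge replicate 2 Irs2 was at -0.032 with the sponge (-0.032 to 0.30). With the sponge the first Insr probe ranged from -0.75 to -0.21, Igf1 from -0.40 to -0.19, Igf2r from 0.06 to 0.32 and Igfbp4 from 0.10 to 0.25. Signal over background limits the account: Igfbp3, Igfbp7, Igf1r and Irs1 were below it throughout.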

Other observations

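Some further pathway genes were detected on all 6 arrays but were too dim for the test. Dok4 is an adaptor of the insulin receptor. On the log2 scale it read 5.03 and 5.06 on control, 5.42 and 5.88 on miR-26a, and 4.77 and 4.84 on sponge arrays. The 3 groups did not overlap. Of all probes tested, 26.5% were higher with miR-26a than on control without overlap, and 20.4% lower with the sponge. Stc2 is a secreted inhibitor of the protease that cleaves IGFBP4. It read 5.24 and 5.10 on control, 5.43 and 4.94 on miR-26a, and 5.70 and 5.33 on sponge arrays. The miR-26a arrays of Stc2 overlapped the control arrays, while its sponge arrays lay above them without overlap. Of all probes tested, 17.3% were higher with the sponge than on control without overlap. Pappa and Pappa2, proteases of IGF binding proteins, were not above background on any array. All 4 were picked for mention with their values known.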
